A study of Homo sapiens with 6 samples.

Results

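This account covers 10 transcription factors of epithelial or gut identity: ELF3, EHF, KLF4, KLF5, CDX1, CDX2, HNF4A, GATA6, GRHL2 and OVOL1. They were matched by gene symbol among 60675 gene rows, and each symbol had 1 row. The list, with ELF3 in its title, was selected on K29Q against WT values of these same libraries, so the differences of its members are given as description, with no p-value. The cells were HCT116, an established human colon cancer line, that stably expressed PHF5A with a glutamine in place of a lysine (K29Q, 3 libraries) or wild-type PHF5A (WT, 3 libraries). PHF5A belongs to the SF3B complex of the spliceosome, which recognises the branch point of introns. A glutamine at a lysine position is widely taken as a stand-in for acetylation. The series title asks whether PHF5A acetylation alters stress responses and tumour growth through splicing. Whether the libraries within a group are separate cultures or clones is not labelled, so any p-value given here reflects variation among libraries that could be purely technical. Both groups are labelled by the PHF5A they stably expressed, and the labels name no removal of the cells' own gene.

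Gut identity is held by a small set of DNA-binding proteins that act together. CDX1 and CDX2 are caudal-type homeobox factors of hindgut and intestine, HNF4A is a nuclear receptor that activates enterocyte genes, and GATA6 is a zinc finger factor of endoderm. ELF3 and EHF are epithelial members of the ETS family, and ELF3 is also known as a gene induced by inflammatory cytokines through NF-kB. KLF5 is most abundant in proliferating crypt cells and KLF4 in differentiated cells at the luminal surface. GRHL2 sustains genes of epithelial junctions, and OVOL1 is a zinc finger repressor that opposes the mesenchymal programme.

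ELF3 (ENSG00000163435, chromosome 1 from 202007945 to 202017188, plus strand, GRCh38) is the member whose K29Q and WT values lay farthest apart. The 250 bases before its RefSeq transcription start (chr1:202010337-202010586, GRCh38.p14, plus strand) are shown because this is the DNA from which that transcript begins. The RefSeq start lies inside the longer GENCODE gene model given above. Capitals mark the core GGAA of ETS sites, read on either strand as GGAA or TTCC.
ELF3: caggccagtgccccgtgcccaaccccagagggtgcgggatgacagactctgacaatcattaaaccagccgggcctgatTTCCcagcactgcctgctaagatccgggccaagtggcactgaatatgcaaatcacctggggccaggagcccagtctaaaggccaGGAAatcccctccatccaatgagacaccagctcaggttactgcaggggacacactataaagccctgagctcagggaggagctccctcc

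The stretch held 2 ETS cores, starting 172 and 88 bases before the start, against a median of 3 over 35116 RefSeq promoter stretches of the same length. At least 1 such core was present in 92.7% of those stretches. A TATAAA run, the core of a TATA box, began 34 bases before the start, and TATAAA on either strand was found in 10.7% of the stretches. CACCC, a core bound by KLF proteins, occurred 1 time on either strand (found in 54.7%), and GATAA, a core bound by GATA factors, occurred 0 times (found in 20.4%). CpG dinucleotides numbered 4, against a median of 11. These are letter matches and not measured binding. Of the 10 factors 7 had a RefSeq promoter entry (ELF3, EHF, KLF4, KLF5, CDX2, HNF4A and GATA6).

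The deposited values were FPKM, fragments scaled to transcript length and library size. That scaling covers nothing else, such as GC content, so an order of different genes by level is approximate. FPKM sums lay between 249034 and 253451 per library, and the smallest steps in the values gave estimated depths of 33600000 to 40000000 fragments. A gene was taken as expressed and tested when its FPKM reached 1 in at least 3 libraries, which 13261 genes did. Of the 10 factors 9 were expressed by this rule. PHF5A had 41.4, 45.9 and 45.0 FPKM in K29Q 1 to 3, against 32.4, 34.4 and 32.7 FPKM in WT 1 to 3. These values do not separate an introduced transcript from the cells' own. WT 1 stood apart from its group: the K29Q libraries scored −14.9 to −4.76 on principal component 1 (34.1% of the variance), against −4.72 for WT 1, 13.2 for WT 2 and 18.0 for WT 3. The column headers named 2 flow cells: A held K29Q 1, K29Q 2 and WT 2, and B held K29Q 3, WT 1 and WT 3.

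As a check of cell identity, the general epithelial markers KRT19, KRT8, KRT18, EPCAM and CDH1 were all expressed. Their summed level, most of it KRT19 and KRT8, ran from 1140 to 1200 FPKM in K29Q and from 1240 to 1400 FPKM in WT. The K29Q libraries lay wholly below WT for 4 of the 5 (9.00% of all tested genes), while EPCAM overlapped. Of the 5 markers 0 had a limma adjusted p under 0.05. Of 6 colonocyte markers only CDX2 was expressed. KRT20, CDH17, VIL1, LGALS4 and GPA33 had at most 0.858 FPKM in any library. CD68 and COL1A1 were the only expressed genes among 8 leukocyte, 6 fibroblast and 6 endothelial markers. The cells thus carried epithelial markers and CDX2, with the defining genes of mature colonocytes at low levels. In such bulk libraries, fewer cells of a type and less RNA per cell cannot be told apart.

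**Figure D1:**
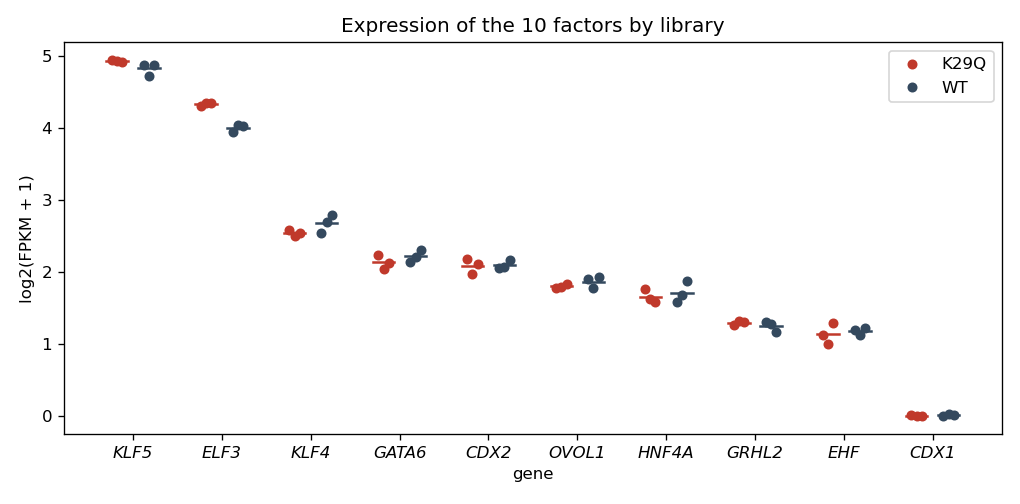
Expression of the 10 factors as log2(FPKM + 1). Each point is 1 library, K29Q left of WT for each gene, and each bar is the mean of 3 libraries. KLF5 and ELF3 stand above the others, CDX1 lies at 0, and ELF3 shows a clear gap between K29Q (18.7 to 19.2 FPKM) and WT (14.3 to 15.4 FPKM).

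By level, the 10 factors ran KLF5, ELF3, KLF4, GATA6, CDX2, OVOL1, HNF4A, GRHL2, EHF and CDX1. KLF5 (25.4 to 29.6 FPKM over the 6 libraries) exceeded 90.7% of tested genes in mean FPKM and ELF3 exceeded 83.2%. KLF4 lay close to the middle, above 49.5% of tested genes. EHF, the lowest of the expressed members, exceeded 6.95%. The ranges over 6 libraries overlapped between 3 neighbours in this order: GATA6 and CDX2, OVOL1 and HNF4A, and GRHL2 and EHF. The other neighbours did not overlap.

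Within the ETS pair, ELF3 had 18.7, 19.2 and 19.2 FPKM in K29Q 1 to 3, against 14.3, 15.4 and 15.3 FPKM in WT 1 to 3. Every K29Q library lay above every WT library, and the gap between the groups was wider than the spread inside either. The means were 19.0 ± 0.306 FPKM in K29Q and 15.0 ± 0.576 FPKM in WT (SD, n = 3 each), a ratio of 1.27. On the log2(FPKM + 1) scale, which understates changes of low genes, the difference was 0.32 (SE 0.058). By flow cell it stood at 0.28 (A) and 0.35 (B), and it was 0.29 when WT 1 was left out. Of the 13261 tested genes, 555 (4.19%) had a larger difference in the same direction.

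EHF, the closest relative of ELF3 in the list, was far lower and showed no such gap. It had 1.19, 1.01 and 1.44 FPKM in K29Q 1 to 3, against 1.28, 1.18 and 1.34 FPKM in WT 1 to 3. The K29Q libraries enclosed all 3 WT libraries, and the log2 difference was −0.04 (SE 0.090), or −0.06 in flow cell A and 0.08 in flow cell B. EHF (ENSG00000135373) lies on chromosome 11 from 34621093 to 34661057.

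The log2 differences of the KLF pair had opposite signs, but both were small and their size depended on which library was left out. KLF5 (ENSG00000102554, chromosome 13 from 73054976 to 73077542), the factor of proliferating crypt cells, had 29.6, 29.4 and 29.0 FPKM in K29Q 1 to 3, against 28.2, 25.4 and 28.3 FPKM in WT 1 to 3. All K29Q values were above all WT values, but K29Q 3 and WT 3 lay close together, and the lowest library, WT 2, widened the mean gap. The log2 difference was 0.10 (SE 0.064), or 0.21 in flow cell A, which holds WT 2, and 0.04 in flow cell B, and it was 0.05 without WT 2. KLF4 (ENSG00000136826, chromosome 9 from 107484852 to 107490482), the factor of differentiated cells, had 4.96, 4.65 and 4.84 FPKM in K29Q 1 to 3, against 4.79, 5.49 and 5.93 FPKM in WT 1 to 3. WT 1 fell among the K29Q values, so the groups overlapped. The log2 difference was −0.13 (SE 0.081), or −0.16 in flow cell A and −0.12 in flow cell B. It was −0.07 without WT 3 and −0.20 without WT 1.

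The gut identity factors overlapped between the groups. CDX2 (ENSG00000165556, chromosome 13 from 27962137 to 27971139) had 3.54, 2.92 and 3.30 FPKM in K29Q 1 to 3, against 3.16, 3.21 and 3.48 FPKM in WT 1 to 3. Its groups overlapped fully, with means of 3.25 ± 0.315 FPKM in K29Q and 3.28 ± 0.170 FPKM in WT (SD, n = 3 each) and a log2 difference of −0.01 (SE 0.078). GATA6 (ENSG00000141448, chromosome 18 from 22169443 to 22202528) had 3.69, 3.13 and 3.38 FPKM in K29Q 1 to 3, against 3.42, 3.60 and 3.95 FPKM in WT 1 to 3. These ranges also overlapped, and the log2 difference was −0.08 (SE 0.078), or −0.13 without K29Q 1 and −0.04 without K29Q 2 or without WT 3.

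HNF4A (ENSG00000101076, chromosome 20 from 44355700 to 44434596) had 2.39, 2.08 and 1.99 FPKM in K29Q 1 to 3, against 1.99, 2.20 and 2.66 FPKM in WT 1 to 3. It was the most variable of the expressed factors in WT, with a coefficient of variation of 15.1%, and the log2 difference of −0.06 (SE 0.097) was smaller than its error. CDX1 (ENSG00000113722, chromosome 5 from 150166795 to 150184558) was the single member under the expression threshold. It was listed at 0.0160 FPKM in K29Q 1 and at 0 in K29Q 2 and K29Q 3, against 0 in WT 1, 0.0226 FPKM in WT 2 and 0.0158 FPKM in WT 3. By the estimated depths these values correspond to 1.0 fragment in K29Q 1, 1.5 in WT 2 and 1.0 in WT 3, so no comparison of CDX1 was possible at this depth.

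GRHL2 and OVOL1, which sustain the epithelial state, were low and also overlapped. GRHL2 (ENSG00000083307) had 1.40, 1.49 and 1.47 FPKM in K29Q 1 to 3, against 1.47, 1.42 and 1.24 FPKM in WT 1 to 3, a log2 difference of 0.05 (SE 0.071). OVOL1 (ENSG00000172818, chromosome 11 from 65787022 to 65797219) had 2.44, 2.47 and 2.58 FPKM in K29Q 1 to 3, against 2.73, 2.43 and 2.80 FPKM in WT 1 to 3, a log2 difference of −0.06 (SE 0.069). For GRHL2, WT 1 and WT 2 fell inside the K29Q range and WT 3 below it. For OVOL1, WT 2 lay just below the K29Q libraries and the others above.

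**Figure D2:**
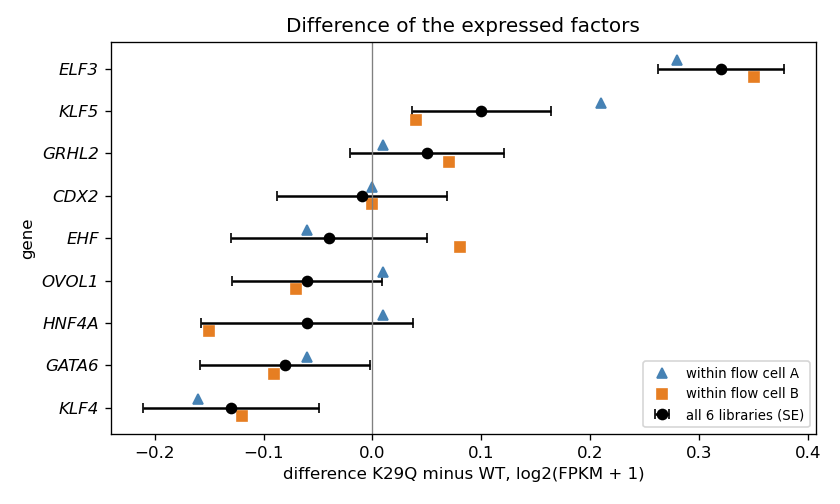
Difference K29Q minus WT on the log2(FPKM + 1) scale for the 9 expressed factors, ordered by size. Black points with bars are the fit to all 6 libraries with its SE, and triangles and squares show flow cell A and flow cell B alone. ELF3 stands at 0.32, and the other 8 lie between −0.13 and 0.10.

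Across the 9 expressed members, ELF3 and KLF5 had K29Q libraries that all lay above the WT libraries, beside 8.80% of all tested genes in that direction, and 0 had K29Q libraries all below, beside 9.00%. The threshold of the limma fit (Benjamini-Hochberg adjusted p under 0.05 over all tested genes) was passed by 0 of the 9, and by 7 of 13261 genes (0.0528%). An unadjusted p under 0.05 was reached by 12.5% of all tested genes. The log2 difference was above 0 in 3 members and below 0 in 6. Its median was −0.04, against 0.003 over all tested genes. Since the members were chosen with this contrast known, these counts describe the list and test nothing.

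Library WT 3 was the highest of the 6 for 4 of the 9 expressed factors (KLF4, GATA6, OVOL1 and HNF4A) and the lowest for GRHL2. K29Q 2 was the lowest for KLF4, GATA6, CDX2 and EHF. ELF3 had the second smallest coefficient of variation in K29Q, at 1.61%, after KLF5 at 1.11%, and the smallest in WT, at 3.84%.

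GC content moved with the differences across the transcriptome. The Pearson correlation between GC content of the longest transcript and the log2 difference was −0.364 over 13108 genes, which share the same 6 libraries and are not independent. KLF5, GRHL2 and EHF had under 50% GC (47.0%, 49.8% and 42.3%). The log2 differences of KLF5 and GRHL2 were above 0, but that of EHF was −0.04. The other 6 had more than 52% GC, and 5 of them had differences below 0. Among these 6 only ELF3, at 56.0% GC, had a difference above 0. The 1639 tested genes within 2 percentage points of its GC content had a median difference of −0.05. Because ELF3 was chosen on this contrast, its distance from those genes and from the other members is description and tests nothing. With a GC and length trend fitted and removed per library, the ELF3 difference was 0.36, KLF4 stood at −0.09 and KLF5 at 0.10. GRHL2 then stood at 0.06, EHF at −0.09 and CDX2 at 0.02. Under this correction 81 of 13108 genes (0.618%) passed the threshold, ELF3 among them, but ELF3 was chosen on this same contrast, so its pass tests nothing. When flow cell was also a term, the ELF3 difference was 0.35 and ELF3 no longer passed.

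**Figure D3:**
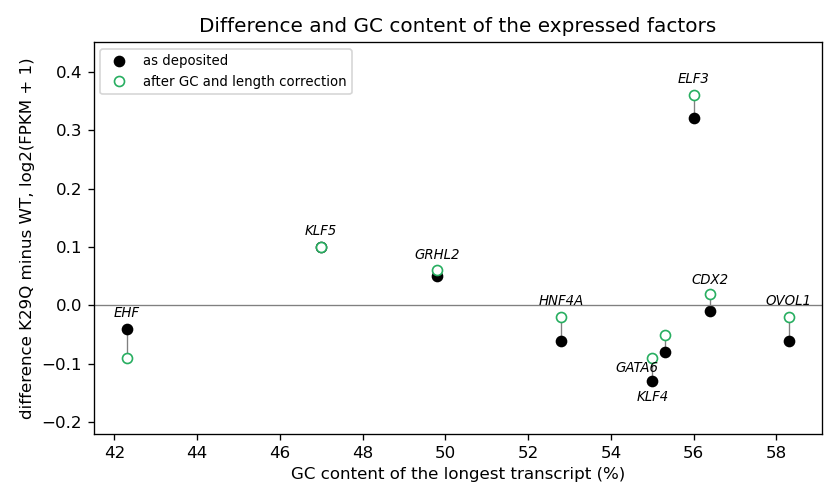
Difference K29Q minus WT on the log2(FPKM + 1) scale against GC content of the longest transcript (%) for the 9 expressed factors. Filled points are the values as deposited, open points those after correction for GC content and length. ELF3, which was chosen on this contrast, lies at 0.32 and 0.36, apart from the members of similar GC content.

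The 5 tested genes whose log2 values followed ELF3 most closely over the 6 libraries, out of 5262 genes with a mean log2 value of at least 3, were ZMYM3, OAS3, PSMA2, PHF5A and KDM2A. Their Pearson correlations ran from 0.9803 to 0.9936, and all 6 points share the K29Q and WT grouping, so this is a description of likeness. OAS3, an enzyme that makes the activator of RNase L, had 16.9 ± 0.462 FPKM in K29Q and 10.3 ± 0.653 FPKM in WT (SD, n = 3 each). Its log2 difference of 0.67 passed the threshold (limma, adjusted p = 0.0357). PSMA2, a subunit of the proteasome core, had 21.8 ± 0.476 FPKM in K29Q and 17.6 ± 0.451 FPKM in WT. ZMYM3, a zinc finger chromatin protein, had 10.8 ± 0.101 FPKM in K29Q and 9.99 ± 0.169 FPKM in WT. KDM2A, a histone demethylase, had 11.1 ± 0.0715 FPKM in K29Q and 10.8 ± 0.0622 FPKM in WT. The log2 differences were 0.40 for PHF5A, 0.30 for PSMA2, 0.11 for ZMYM3 and 0.04 for KDM2A, and none of these passed. A high correlation with ELF3 thus went with differences of unlike size. The other expressed factors correlated with ELF3 between −0.57 (OVOL1) and 0.62 (KLF5). The 5 genes above were picked for their correlation, so their higher values are no comparison with these factors.

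The wider families of these factors were read from lists of relatives. Of 26 further ETS genes 15 were expressed, 0 passed the threshold (limma), and 2 were higher and 2 lower in K29Q at an unadjusted p under 0.05, which 12.5% of all tested genes reached. Their median log2 difference was 0.00, with 8 above 0 and 7 below. The most abundant was ERF, an ETS repressor, with 33.9 ± 3.09 FPKM in K29Q and 33.9 ± 2.98 FPKM in WT (SD, n = 3 each). ELK1, a serum response cofactor, had 16.7 ± 0.905 FPKM in K29Q and 20.0 ± 4.57 FPKM in WT. ETV5 and ELK3 had 13.2 ± 0.156 and 11.7 ± 3.35 FPKM in K29Q, against 13.5 ± 0.761 and 13.4 ± 0.900 FPKM in WT. By group mean, ELF3 (19.0 FPKM in K29Q and 15.0 FPKM in WT) thus lay above ETV5 and ELK3 in both groups and below ERF. ELK1 lay below ELF3 in K29Q and above it in WT. In the single library WT 1, ELK3 had 14.5 FPKM and ELF3 14.3 FPKM.

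Of 15 further KLF genes 10 were expressed and 0 passed the threshold, with 0 at an unadjusted p under 0.05 (12.5% of all tested genes) and a median log2 difference of −0.02. KLF2 had 33.8 ± 6.74 FPKM in K29Q and 39.2 ± 1.79 FPKM in WT, and KLF16 had 25.7 ± 1.63 FPKM in K29Q and 24.9 ± 1.21 FPKM in WT (SD, n = 3 each). KLF10 had 16.4 ± 0.582 FPKM in K29Q and 17.7 ± 1.04 FPKM in WT. Of 11 relatives of the remaining factors 3 were expressed (GATA2, OVOL2 and GRHL1), 0 passed, and 0 had an unadjusted p under 0.05. GATA2 had 6.08 ± 0.551 FPKM in K29Q and 5.43 ± 0.473 FPKM in WT, OVOL2 had 1.42 ± 0.237 FPKM in K29Q and 1.83 ± 0.501 FPKM in WT, and GRHL1 had 1.02 ± 0.0387 FPKM in K29Q and 1.01 ± 0.0677 FPKM in WT.

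Other transcription factors of the gut were read the same way. Of 25 such genes 12 were expressed, 0 passed the threshold, and 1 (VDR, the vitamin D receptor, named after its value was seen) was lower at an unadjusted p under 0.05 (12.5% of all tested genes in either direction). The log2 difference was above 0 in 3 and below 0 in 9, with a median of −0.08. The K29Q libraries lay wholly below WT for 3, SOX9 among them (9.00% of all tested genes). They lay wholly above for 0 (8.80% of all tested genes). SOX9, a factor of crypt progenitors, was the most abundant, at 62.7 ± 3.93 FPKM in K29Q and 69.4 ± 1.75 FPKM in WT (SD, n = 3 each, limma adjusted p = 0.42). TCF7L2, the nuclear partner of beta-catenin, had 16.0 ± 0.976 FPKM in K29Q and 15.9 ± 0.705 FPKM in WT. HES1, a Notch target, had 9.60 ± 0.326 FPKM in K29Q and 9.04 ± 0.471 FPKM in WT. MYRF, a membrane-bound factor best known from myelination, had 8.01 ± 0.852 FPKM in K29Q and 8.38 ± 1.04 FPKM in WT.

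Genes of intestinal differentiation, many of them known to be activated by CDX2 or HNF4A, were mostly under the threshold. Of 42 listed genes 37 were under the expression threshold, and none of these 37 exceeded 0.858 FPKM in any library. Among the 5 expressed 0 passed (limma), and 2 were lower in K29Q at an unadjusted p under 0.05, which 12.5% of all tested genes reached in either direction. CA2, a cytosolic carbonic anhydrase, had 6.86, 7.83 and 7.78 FPKM in K29Q 1 to 3, against 9.51, 9.67 and 8.03 FPKM in WT 1 to 3 (log2 difference −0.24, limma adjusted p = 0.387). MUC13, a membrane mucin, had 2.23, 2.34 and 2.12 FPKM in K29Q 1 to 3, against 2.81, 2.90 and 2.39 FPKM in WT 1 to 3 (log2 difference −0.19, limma adjusted p = 0.392). In both the K29Q libraries lay below all WT libraries, narrowly so against WT 3, as they did for 9.00% of all tested genes. DPP4, a brush border peptidase, had 1.64 ± 0.102 FPKM in K29Q and 1.48 ± 0.0923 FPKM in WT (SD, n = 3 each). CDHR5, a microvillar cadherin, had 1.48 ± 0.145 FPKM in K29Q and 1.59 ± 0.362 FPKM in WT. The median of the 5 was −0.08, and −0.02 after the GC and length correction.

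Epithelial junction and surface genes, a set that includes known targets of GRHL2, were nearly all expressed (38 of 40, with PATJ found under its older symbol INADL). Of these 0 passed the threshold (limma), and 1 was higher and 5 lower in K29Q at an unadjusted p under 0.05, beside 12.5% of all tested genes in either direction. The K29Q libraries lay wholly below WT for 6 (9.00% of all tested genes) and wholly above for 1 (8.80% of all tested genes). The log2 difference was above 0 in 15 and below 0 in 23, with a median of −0.03, and −0.01 after the GC and length correction. KRT19 had 601 ± 25.9 FPKM in K29Q and 699 ± 55.0 FPKM in WT (SD, n = 3 each), a log2 difference of −0.21 that was −0.16 after the correction. KRT8 had 320 ± 18.2 FPKM in K29Q and 367 ± 28.3 FPKM in WT, and its log2 difference was −0.20 and −0.15 after the correction. KRT18 had 170 ± 1.14 FPKM in K29Q and 182 ± 7.57 FPKM in WT, while JUP, the junction protein plakoglobin, had 92.1 ± 8.13 FPKM in K29Q and 98.2 ± 10.4 FPKM in WT.

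CDH1 and F11R were picked out after their values were seen, among the junction and surface genes whose K29Q libraries all lay below WT. CDH1, which codes for E-cadherin, had 14.8 ± 0.876 FPKM in K29Q and 16.4 ± 0.0789 FPKM in WT (SD, n = 3 each, limma adjusted p = 0.411). F11R, a tight junction adhesion molecule, had 20.4 ± 0.282 FPKM in K29Q and 23.7 ± 0.554 FPKM in WT (limma adjusted p = 0.316). EPCAM, an epithelial adhesion molecule, overlapped between the groups, at 58.1 ± 5.47 FPKM in K29Q and 55.8 ± 6.73 FPKM in WT.

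The transcription factors that drive the mesenchymal state, which OVOL1 and GRHL2 are known to oppose, were low. SNAI1 was the only 1 of 6 expressed, at 5.48 ± 0.537 FPKM in K29Q and 5.46 ± 0.105 FPKM in WT (SD, n = 3 each). The other 5 had at most 0.826 FPKM in any library, and 1 of them was listed at 0 in all 6.

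**Figure D4:**
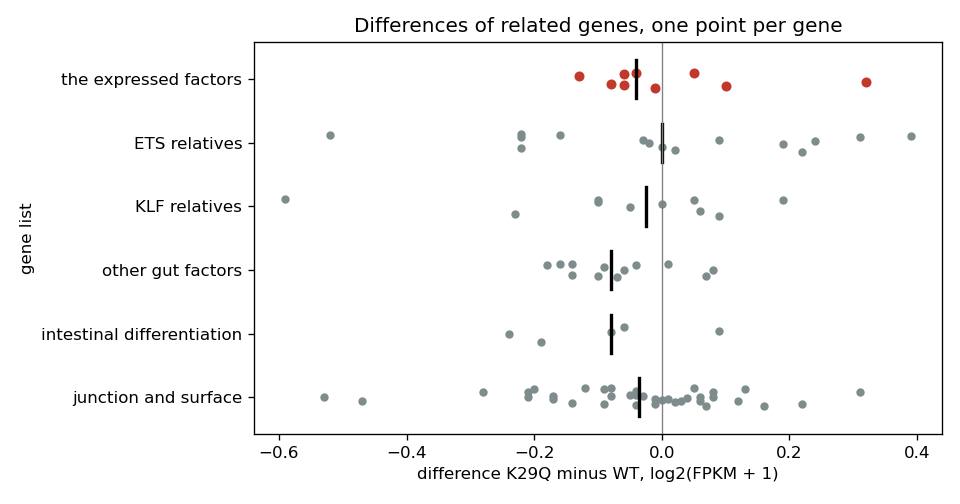
Difference K29Q minus WT on the log2(FPKM + 1) scale for each expressed gene of 6 lists, with 1 point per gene and a black bar at the list's median. The medians lie between −0.08 and 0.00, and ELF3 is the rightmost of the 9 expressed factors.

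**Figure D5:**
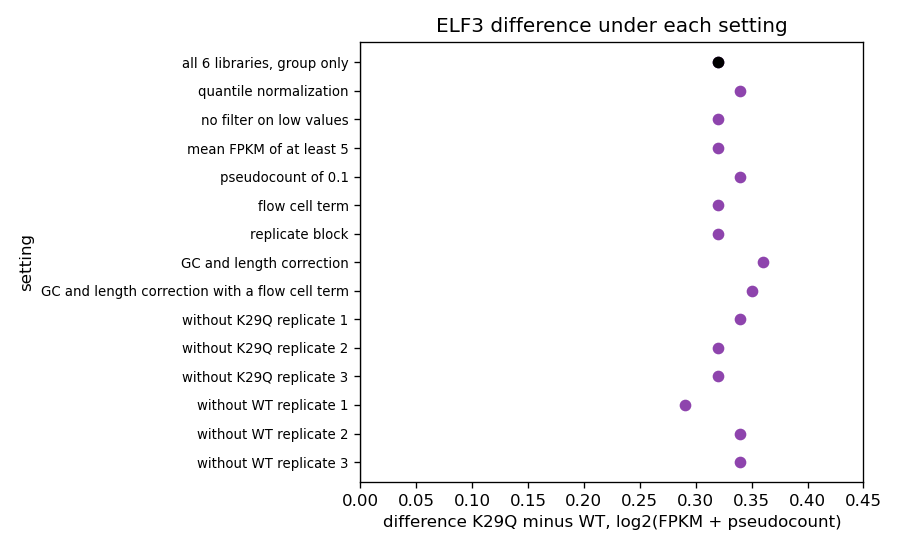
The ELF3 difference K29Q minus WT, log2(FPKM + pseudocount), under each setting of the analysis, with the fit to all 6 libraries in black. All 15 values lie between 0.29 and 0.36.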

How the data were processed

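RNA of 6 HCT116 libraries was analysed from a table of FPKM per gene and library deposited by the authors. The submitters' processing notes name HISAT2 2.1.0, StringTie and the GRCh38 build. Annotation release and strandedness: not given in the sources used here. FPKM are not counts, so no count test was run; StringTie can divide fragments among overlapping models. Depth was estimated from the commonest smallest step among 7333 single-exon genes over 600 nt. Values of log2(FPKM + 1) for genes reaching 1 FPKM in 3 or more libraries were fitted by limma 3.58.1 (R 4.3.3) with an intensity trend and group as the only term, tested on simulated data, with Benjamini-Hochberg adjustment over 13261 genes. Coordinates, GC content and lengths came from GENCODE 29. Promoter bases came from RefSeq (GRCh38.p14).

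Members and lists were chosen with earlier results of these data known. The text names all 10 members and the 5 genes most like ELF3. From each other list it names the 4 most abundant expressed genes, or all expressed genes where fewer were expressed. Others are marked. Some marker genes are given only within sums or maxima. The table had 0 value columns of other samples. Precision rests on 3 libraries per group. Alternatives were quantile normalization, other filters, a pseudocount of 0.1, a flow cell term, the replicate block, GC and length correction (loess, span 0.5) and each library left out.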

Additional observations from a re-analysis of the deposited data

How the results depend on the processing

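The ELF3 difference lay between 0.29 and 0.36 (log2) over 14 alternatives, and between 0.29 and 0.34 with a library left out. The count of genes past the threshold was 7, and it was 13 with quantile normalization, 2 with no filter on low values, 4 with flow cell as a term, 3 under the replicate block, 81 after GC and length correction, and between 5 (without K29Q 2, and likewise without WT 2) and 20 (without WT 1) with a library left out. It was 12 without K29Q 1. The cause was not tested. Of the members 0 passed, also with any library left out, except that 1 (ELF3) passed after GC and length correction and 0 once a flow cell term was added to it; ELF3 was chosen on this contrast, so its pass is no evidence. The members' median was 0.10 with a mean FPKM of at least 5, where 3 members remain by construction, and between −0.07 and 0.03 with a library left out. In no fixed list of related genes did a gene pass under any of the 14 alternatives. CDX2, EHF, HNF4A and OVOL1 changed sign between alternatives, within −0.12 to 0.05. OVOL1 moved by more than its spread to 0.01 with GC and length correction and a flow cell term, a combination chosen after seeing the data.

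Correlations of deviations across genes were −0.14, 0.179 and −0.165 for same-numbered libraries 1, 2 and 3, and 0.247 for K29Q 1 with WT 3 and 0.208 for K29Q 3 with WT 1. Libraries numbered 2 correlated best with each other and the others did not, so these values showed no consistent pairing by number. They cannot exclude a pairing, because deviations from a mean of 3 libraries are tied to each other. Under the replicate block the ELF3 difference was 0.32. With 3 libraries a group, small differences of the low members cannot be resolved.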

Other observations

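Some relatives of these factors varied more between libraries of 1 group than between the groups. KLF6, a zinc finger factor induced by growth and stress signals, had 20.4, 8.51 and 8.69 FPKM in K29Q 1 to 3, against 21.8, 12.0 and 21.7 FPKM in WT 1 to 3. K29Q 1 thus stood with WT 1 and WT 3, and WT 2 stood nearer to K29Q 2 and K29Q 3. Its log2 difference was −0.59 over all 6 libraries (SE 0.36), or 0.13 in flow cell A and −1.23 in flow cell B. ELK3, an ETS factor, had 13.7, 7.88 and 13.6 FPKM in K29Q 1 to 3, against 14.5, 13.2 and 12.7 FPKM in WT 1 to 3, with K29Q 2 alone low.

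ELF4, an ETS relative of ELF3 that was picked out after its values were seen, lay in the other direction from ELF3. It had 5.56, 5.26 and 6.26 FPKM in K29Q 1 to 3, against 9.74, 9.47 and 6.84 FPKM in WT 1 to 3. The K29Q libraries lay wholly below WT, as they did for 9.00% of all tested genes, and WT 3 lay close to K29Q 3. The log2 difference of −0.52 did not pass the threshold (limma, adjusted p = 0.289). In flow cell A it stood at −0.71, and in flow cell B at −0.34. ELF1 and ELF2, also picked out after their values were seen, went the same way as ELF3. Their log2 differences were 0.19 and 0.39, and neither passed the threshold. The K29Q libraries lay wholly above WT for ELF1, while ELF2 overlapped. Of the 15 expressed ETS relatives, K29Q lay wholly above WT for 1 (8.80% of all tested genes) and wholly below for 2.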
